A study of Mus musculus with 2 samples.

Results

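Mir139 is the microRNA gene with the highest mean level in these data from mouse hippocampus. It is 1 of 2202 microRNA genes counted (ENSMUSG00000065446.1), and its row was found by matching the Ensembl identifiers of the count files to GENCODE M21 symbols. It was chosen by its mean sense count level over both libraries, so that level is a description and carries no test. The study consists of 2 small-RNA libraries, which the labels number as biological replicates 1 and 2 of 1 control group: wild-type mice of strain B6NCrl from the MODEL-AD source, described as female although the sex and age fields hold no value. Both libraries derive from 1 donor record and from separate biosample records. No label states that the tissue came from different animals, so the spread between the libraries may be technical. The tissue is described as a layer of hippocampus without naming the layer, and RNA under 30 nt was sequenced. The adapter trimming document differs between the libraries, so a difference between them cannot be told apart from a difference in handling.

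A microRNA is cut from a hairpin precursor, first by Drosha in the nucleus and then by Dicer in the cytoplasm. One arm of the hairpin is loaded into an Argonaute protein and pairs with messenger RNAs mainly through its seed, the bases near its 5′ end, which lowers their stability and translation. Mir139 lies inside Pde2a, which encodes a phosphodiesterase that is stimulated by cGMP, breaks down cAMP and cGMP, and is abundant in hippocampal and other forebrain neurons. Its product miR-139-5p has been studied mostly as a microRNA that is reduced in several tumours.

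The hairpin and both annotated mature arms are printed first because the counts refer to the whole hairpin and do not separate the arms. All sequences are from RefSeq on GRCm38.p6, the mm10 assembly of the count files. The hairpin spans chr7:101475376-101475443 on the plus strand, is 68 bases long and has a GC content of 58.8%. Capitals mark the mature arms in the hairpin, and the seed (bases 2 to 8) in each arm.
Mir139 hairpin: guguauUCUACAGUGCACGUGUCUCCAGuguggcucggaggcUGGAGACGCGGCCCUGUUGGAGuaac
mmu-miR-139-5p: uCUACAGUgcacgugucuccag
mmu-miR-139-3p: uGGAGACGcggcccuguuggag

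The 5p arm covers hairpin positions 7 to 28 (chr7:101475382-101475403), counted from the 5′ end, and the 3p arm positions 43 to 64 (chr7:101475418-101475439). Each arm is 22 bases long and 14 bases separate them. In the minimum free energy fold, at -35.6 kcal/mol, the hairpin had 25 base pairs, of which 19 joined one arm to the other.

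Neither seed of Mir139 was found in another mouse microRNA with a mature sequence in RefSeq, which does not cover all 2202 genes counted here. Among 1738 mature sequences of 1058 genes in the RefSeq table, 0 others shared bases 2 to 8 with the 5p arm and 0 with the 3p arm. For bases 2 to 7 the 5p arm still had 0 matches, and the 3p arm had 1, mmu-miR-6397 (chr4:108087414-108087434), whose gene Mir6397 had 0 counts in both libraries. The let-7 microRNAs that come next in level form a large seed family instead. Their seed GAGGUAG occurred in 13 mature sequences from 13 genes, and it is capitalised in the sequences of Mirlet7b (chr15:85707325-85707346), Mirlet7g (chr9:106178846-106178867) and Mirlet7i (chr10:122985698-122985719).
mmu-let-7b-5p: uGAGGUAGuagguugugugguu
mmu-let-7g-5p: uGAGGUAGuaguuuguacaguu
mmu-let-7i-5p: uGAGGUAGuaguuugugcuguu

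The hairpin of Mir139 also stood apart from other hairpins over its whole length. The longest stretch it shared with a microRNA hairpin at another place was 11 bases, found in Mir6352 and Gm22370, which both had 0 counts in both libraries. No read of 18 or more bases from this hairpin is therefore identical to part of another annotated hairpin. Whether the genome holds further copies was not examined. Of all 2202 genes, 1135 shared 18 or more bases with a hairpin elsewhere, among them Mirlet7b, Mirlet7i and Mirlet7g. This bears on the order of levels, because multi-mapped reads form a class of their own that enters no gene's count. The class held 6938312 reads in replicate 1 and 6569009 in replicate 2, which is 11.8 and 5.91 times the count of Mir139.

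Mir139 is intronic. Pde2a covers 91.1 kb of chromosome 7 (mm10, 101421691 to 101512827) on the plus strand, the strand of Mir139, and the hairpin starts 58.9% of the way along it. Of 12 annotated Pde2a transcripts 10 span the hairpin, and 0 have an exon that overlaps it. In all 4 protein-coding transcripts that span it, Mir139 lies in intron 2, which is 29902 bases long (101451469 to 101481370). The hairpin begins 23907 bases after the upstream exon and ends 5927 bases before the downstream one. Of these 4 transcripts, 3 start 53667 or 53685 bases upstream of the hairpin, and Pde2a-204 starts 24856 bases upstream. In 4 other Pde2a transcripts, and in Gm45837, a second protein-coding gene model that overlaps Pde2a, the intron around Mir139 is 19829 bases long and ends at the same place. Pde2a messenger RNA was not measured by this assay.

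**Figure D1:**
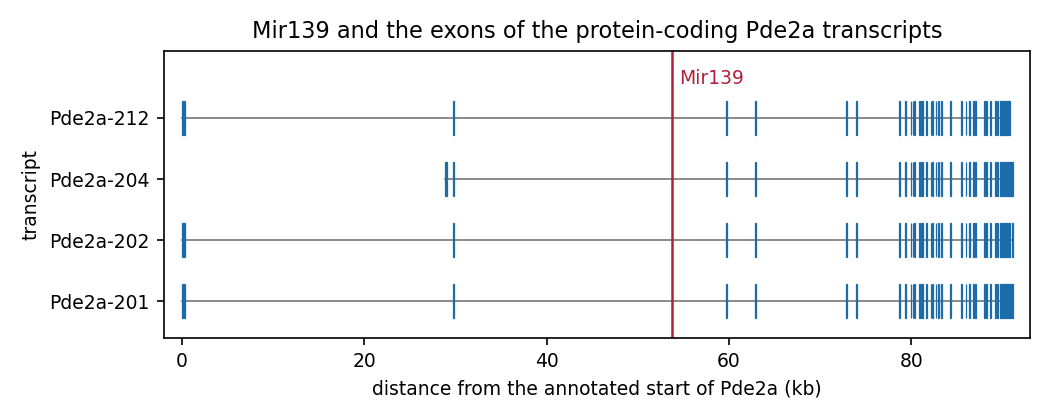
The 4 protein-coding Pde2a transcripts are drawn with exons as blue bars and introns as grey lines, against the distance in kb from the annotated gene start; the red line marks Mir139 and its width is not to scale. In each transcript Mir139 sits in intron 2, between an exon 23907 bases upstream and one 5927 bases downstream.

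Mir139 has no microRNA gene close by. The nearest on either side along chromosome 7 were Mir3102 in an intron of Arhgef17, at a distance of 593 kb, and Gm22655 in an intron of Anapc15, at 406 kb. Mir3102 had 5434 and 4442 counts in replicates 1 and 2, and Gm22655 had 0 in both.

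Mir139 received 585777 sense counts in replicate 1 and 1111464 in replicate 2. These counts were 8.72% (exact Clopper-Pearson 95% interval 8.70 to 8.75) of 6713867 sense counts on microRNA genes in replicate 1. In replicate 2 they were 18.8% (exact 95% interval 18.8 to 18.9) of 5901107. Replicate 2 was thus the higher library both in raw counts and in share, although it was the shallower one. In other words, 1 sense count in 11.5 came from Mir139 in replicate 1 and 1 in 5.31 in replicate 2. In counts per 1000000 sense counts on microRNA genes (CPM), the levels were 87249 and 188348, with a mean of 137799 ± 71488 (SD, n = 2). The mean leans on replicate 2, since replicate 1 alone gives a level lower by more than 1.5 times. Intervals cover counting error only, as the files hold no molecular identifiers, and the gap between the libraries was far wider than either interval.

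Measured against wider totals the gene remained a large part of each library. Mir139 made up 3.71% of all 15794475 reads of replicate 1 and 7.77% of all 14300757 reads of replicate 2. Of reads with 1 place in the genome it made up 8.19% and 17.5%. In total RNA from tissue, fewer cells of a type and less RNA per cell cannot be told apart, so these shares do not say how many cells express Mir139.

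The counts of Mir139 lay entirely on its own strand. Counting without strand gave the same 585777 and 1111464, and 0 antisense counts were found in either library. With 3 counts taken as the upper limit for a count of 0, antisense reads could be at most 0.000512% of the sense count in replicate 1 and 0.00027% in replicate 2. No annotated microRNA gene lies opposite Mir139.

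The order of the leading genes was not the same in both libraries. Mir139 ranked 3 in replicate 1, behind Mirlet7i at 94910 CPM and Mirlet7g at 89071 CPM, and ranked 1 in replicate 2. Mirlet7b, the next gene by mean, had 72727 and 111790 CPM, below Mir139 in both libraries, and its mean lay 45540 CPM lower. The range of Mir139 over the libraries overlapped those of 3 genes, Mirlet7b, Mirlet7i and Mirlet7g, all members of the let-7 family that accompanies cell differentiation. Of these, Mirlet7i and Mirlet7g were above Mir139 in replicate 1 and below it in replicate 2. The ranges of Mir127 (79691 and 48439 CPM), from the imprinted Dlk1-Dio3 locus, and of all genes below it stayed under the lowest level of Mir139.

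**Figure D2:**
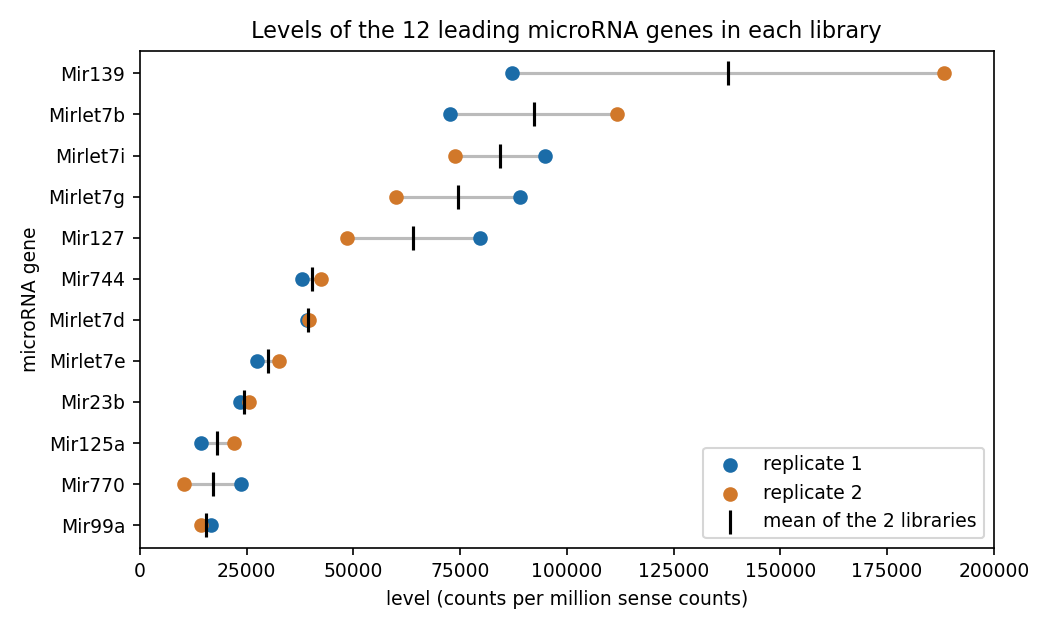
Levels of the 12 microRNA genes with the highest means are shown on a linear axis in CPM, with a blue point for replicate 1, an orange point for replicate 2 and a black tick for their mean. Mir139 has the widest gap of the 12, from 87249 to 188348, and its lower point falls among the points of the let-7 genes.

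Among the 1067 genes whose hairpin shares fewer than 18 bases with another, Mir139 ranked 1 in both libraries. It held 13.5% of their counts in replicate 1 and 28.3% in replicate 2. Mir127 came second in both, and Mir139 exceeded it 1.09-fold in replicate 1 and 3.89-fold in replicate 2.

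By mean level, the measure it was chosen by, Mir139 necessarily also led the microRNA genes that lie inside introns of protein-coding genes on the same strand. There were 772 such genes, which together took 42.4% of sense counts in replicate 1 and 49.6% in replicate 2. Mir139 alone supplied 20.6% and 38.0% of their counts, a mean of 29.3% ± 12.3 (SD, n = 2). With Mir139 out of both the group and the totals, the other intronic genes held 36.9% and 37.9% of the remaining sense counts, a much smaller gap between the libraries. In replicate 1 Mir139 ranked 2 in the group, behind Mirlet7g in an intron of Wdr82, and in replicate 2 it ranked 1.

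The intronic genes that followed Mirlet7g came from hosts of varied function. Mir744, in Map2k4, which encodes a kinase of the JNK pathway, had 38056 and 42439 CPM in replicates 1 and 2. Mirlet7e and Mir125a, in Spaca6, had means of 29976 ± 3768 and 18155 ± 5403 CPM (SD, n = 2), and Mir23b, in 2010111I01Rik, had 24443 ± 1443 CPM. Mir652, in Tmem164, had 15154 ± 4804 CPM and Mir149, in Gpc1, which encodes the heparan sulfate proteoglycan glypican, had 11214 ± 2338 CPM. Even the lower of the levels of Mir139 was above that of each of these 6 genes in either library.

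Between the libraries Mir139 differed by more than most genes of similar abundance. After TMM scaling with edgeR, which trims extreme ratios and levels before it compares libraries, its log2 ratio of replicate 2 over replicate 1 was 1.31 (exact counting interval 1.30 to 1.31), a 2.48-fold higher level. With 1 library on each side this difference has no replicate check and no test of condition. A gene is called different here if its ratio is at least 2-fold, and 466 genes whose mean reached 10 counts were examined. Of these, 30 genes or 6.44% were at least 2-fold higher in replicate 2, and 63 genes or 13.5% differed that much in either direction. Mir139 had rank 15 in ratio among the 466. Among the 20 most abundant genes only Mir139 was that much higher and only Mir770, also of the Dlk1-Dio3 locus, that much lower, with 159270 and 60800 counts. The log2 ratio of Mir770 was -1.005, barely past the 2-fold limit. Among the 50 most abundant, 4 were higher and 3 lower.

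The direction of the Mir139 difference did not depend on the scaling, while the split of the other genes did. Scaled to raw totals its log2 ratio was 1.11, a 2.16-fold difference, and 21 genes or 4.51% were at least 2-fold higher against 50 lower. Under TMM the split was 30 higher against 33 lower.

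**Figure D3:**
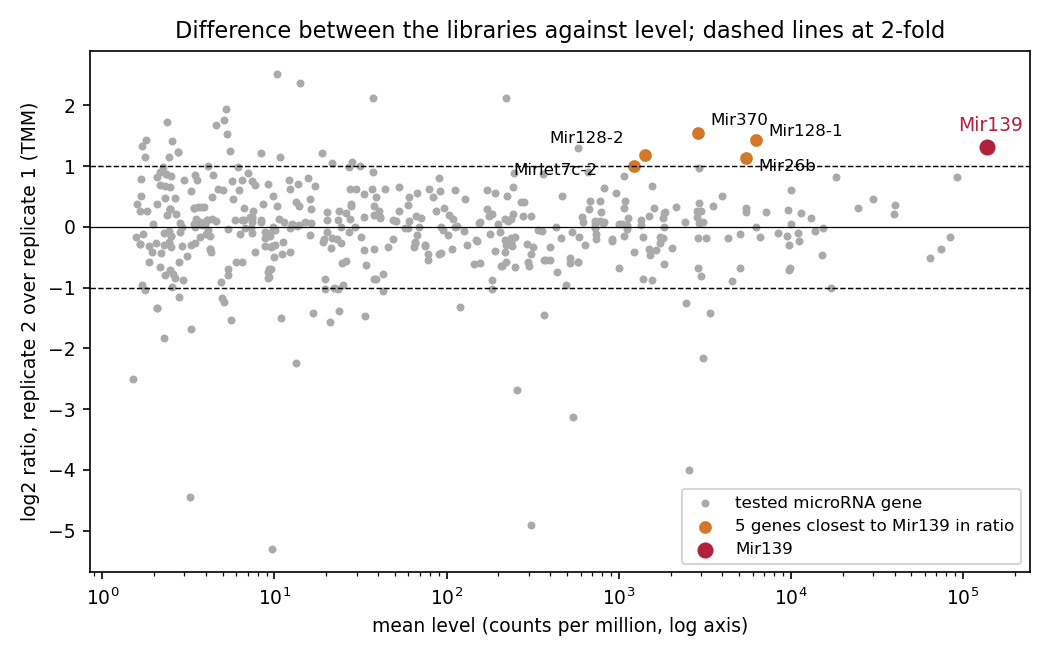
Each point is 1 of the 466 genes, placed by its mean CPM on a log axis and by its log2 ratio of replicate 2 over replicate 1 after TMM scaling; dashed lines mark 2-fold. Mir139, in red, stands alone at the right edge above the upper line, and the 5 orange genes are those closest to it in ratio among genes with a mean of at least 1000 CPM.

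The genes most like Mir139 were sought by the distance between their log2 ratio and its own, over 2 libraries and among the 88 other genes with a mean of at least 1000 CPM. Closest was Mir128-1, at a log2 ratio of 1.43 with 24999 and 51762 counts, in an intron of R3hdm1. It was followed by Mir128-2, at 1.18 with 6395 and 11106 counts, in an intron of Arpp21, which encodes a phosphoprotein regulated by cAMP. Both genes give miR-128, a microRNA of neurons, and both share 18 or more bases with another hairpin, so their counts leave out shared reads. Next came Mir26b, at 1.13 with 25282 and 42456 counts, in an intron of the phosphatase gene Ctdsp1, then Mir370 of the Dlk1-Dio3 locus at 1.54 with 10987 and 24487 counts. Mirlet7c-2 was the last, at 0.996, just under 2-fold, with 6033 and 9218 counts. It too shares 18 or more bases with another hairpin, so its counts leave out shared reads. With 2 libraries a shared ratio is a single difference, and it is given as a description.

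A list of 23 intronic microRNA genes, drawn up from general knowledge to cover synaptic and signalling hosts, puts Mir139 beside other intronic genes. Whether each host is such a gene was not checked. All 23 lay in an intron of a protein-coding gene on the same strand, and 22 reached the mean of 10 counts, the exception being Mir1912. In replicate 2, 3 of the 22 were at least 2-fold higher, namely Mir139, Mir128-1 and Mir128-2. Another 2, Mir764 and Mir1298 in the serotonin receptor gene Htr2c, were at least 2-fold lower, and 17 lay within 2-fold. Both of these lower genes had a log2 ratio of -1.02, barely past the limit. Over all 466 genes the shares were 6.44% higher and 13.5% in either direction. The median log2 ratio was -0.03 over the list and 0.02 over all 466 genes. The list was written with earlier results of these data known and is no independent evidence.

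The members within 2-fold all had levels well under that of Mir139. Mir151, in the focal adhesion kinase gene Ptk2, had 9307 and 7538 CPM, a log2 ratio of -0.11. Mir383, in the sarcoglycan gene Sgcz, had 5617 and 4523 CPM, a ratio of -0.11, and Mir330, in Eml2, had 12079 and 9787 CPM, also -0.11. Each of these ratios lay close to 0 on the TMM scale, inside the 2-fold range. Mir204, in the ion channel gene Trpm3, had 1532 and 1653 CPM (0.31), and Mir326, in the beta-arrestin gene Arrb1, also on chromosome 7, had 1051 and 949 CPM (0.05). Mir346, in the glutamate receptor gene Grid1, had 700 and 951 CPM, a ratio of 0.64. Mir218-1 and Mir218-2, in the axon guidance genes Slit2 and Slit3, had ratios of 0.25 and 0.56, at mean levels of 52.7 and 191 CPM.

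Cell type markers moved unevenly between the same libraries. Of 17 neuronal microRNA genes 16 had counts in both libraries and Mir124a-2 had 0 in both, and they summed to 32270 and 33665 CPM in replicates 1 and 2. Of the neuronal markers Mir132 led, at 15073 and 12540 CPM. The 3 oligodendrocyte genes summed to 7078 and 3193 CPM. Most of the drop was in Mir219a-2, at 5126 and 1671 CPM, and the rest of the list summed to 1951 and 1522 CPM. The endothelial Mir126a had 6191 and 2897 CPM. That sum and Mir126a were both lower in the library where Mir139 was higher. The 3 erythrocyte genes summed to 73.1 and 32.7 CPM, and 6 genes of ependyma and choroid plexus, of which Mir449b and Mir449c had 0 counts, to 2050 and 1744 CPM. Most of that last sum was Mir204, at 1532 and 1653 CPM, and the rest of the list summed to 518 and 90.7 CPM. Without Mir132 the neuronal list summed to 17197 and 21126 CPM. It includes both Mir128 genes, which were close to Mir139 in ratio, Mir128-1 at 3723 and 8772 CPM and Mir128-2 at 953 and 1882 CPM. The gain of this pair was larger than that of the sum. The other neuronal genes together were therefore lower in replicate 2 in CPM, with or without Mir132, but not each of them. Scaled to raw totals, the log2 ratio was -0.88 for Mir138-1, -0.38 for Mir138-2, -0.27 for Mir132 and -0.04 for Mir153. It was above 0 for Mir137 (0.04), Mir129-1 (0.23), Mir129-2 (0.07), Mir218-1 (0.06), Mir218-2 (0.36), Mir9-1 (0.46) and Mir9-3 (1.92). Of 8 muscle and heart genes, 5 had 0 counts in both libraries, and the list summed to 37.4 and 23.0 CPM. Multi-mapped reads enter no gene's count. Mir124a-2 and the muscle genes Mir1a-1, Mir1a-2, Mir133a-1 and Mir133a-2 are numbered copies, so their 0 counts do not show absence. The neuronal and muscle sums can be too low for the same reason. The liver marker Mir122 had 55.1 and 42.0 CPM. Apart from the sums of the neuronal list, each of these sums was lower in replicate 2 in CPM. The larger share of Mir139 in that library lowers every other gene's CPM ratio by 11.1%, and this enters each sum. On the TMM scale the log2 ratio was -1.42 for Mir219a-2 and -0.90 for Mir126a, but -0.16 for Mir338 and -0.19 for Mir122. The part of these cell types in the Mir139 difference was not tested.

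Because CPM divides every gene by a total that includes Mir139, this gene lowered the CPM of all others, and did so by different amounts in the libraries. Leaving it out of the totals raised the CPM of every other gene by 9.56% in replicate 1 and by 23.2% in replicate 2. The larger share in replicate 2 therefore multiplied every other gene's ratio by 0.889, a drop of 11.1% or a log2 shift of -0.17. The median log2 ratio of the other 465 examined genes was -0.18 with Mir139 in the totals and -0.01 without it. The tilt of CPM ratios toward replicate 1 was thus close in size to the shift from this single gene. Under TMM the median was 0.02, and under DESeq2 size factors it was -0.0011. Both methods are set to centre the ratios of these same genes, so a median near 0 is largely built in and is no separate evidence.

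**Figure D4:**
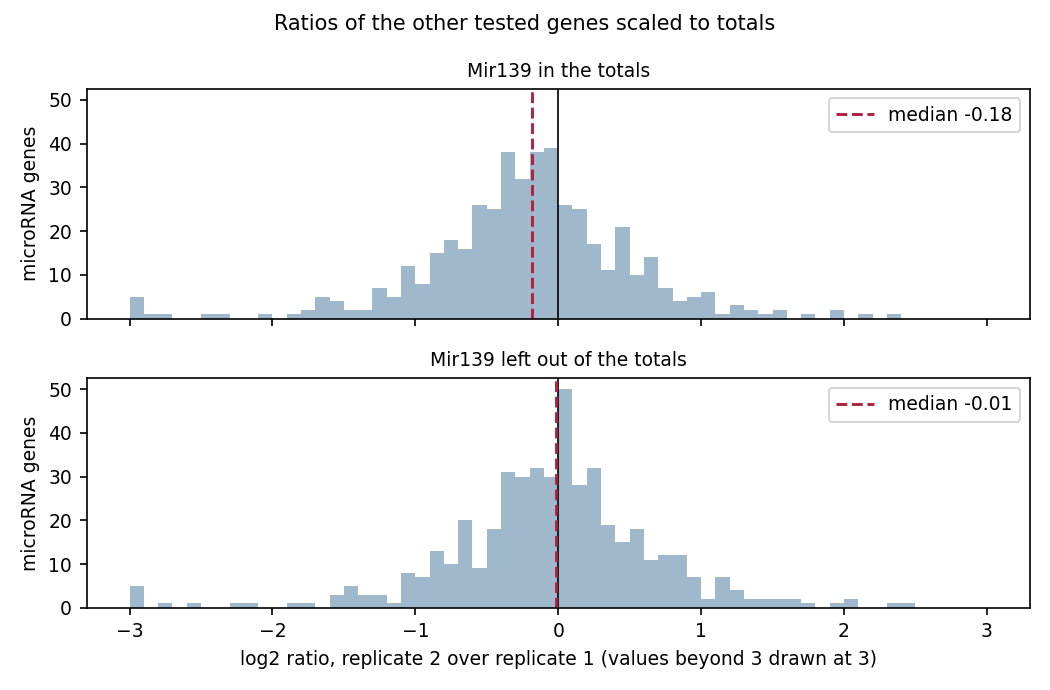
Histograms of log2 ratios (replicate 2 over replicate 1) for the 465 other genes, scaled to totals that include Mir139 (upper panel) and that leave it out (lower panel); the vertical axis counts genes and the dashed red line is the median. The whole distribution slides by the same amount, and its median goes from -0.18 to -0.01.

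The balance of directions followed this shift. With Mir139 in the totals, 305 of the 465 genes were lower in replicate 2 and 160 higher, and without it 234 were lower and 231 higher. Since leaving Mir139 out adds the same amount to every ratio, signs can turn only from lower to higher, and 71 did. Of the 20 most abundant genes, Mir23a and Mir99b turned, with log2 ratios of -0.05 and -0.15 including Mir139 and of 0.12 and 0.02 without it. Other abundant genes changed in size but not in direction. Mir744 went from 0.16 to 0.33, with 41693 and 52287 CPM once Mir139 was left out. Mirlet7b went from 0.62 to 0.79, with 79679 and 137732 CPM, and Mir127 from -0.72 to -0.55, with 87308 and 59679 CPM.

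No other leading gene shifted the totals as much. When each of the 20 most abundant genes was left out in turn, the shift it had given to all others was -0.17 for Mir139 and between -0.06, for Mirlet7b, and 0.05, for Mir127, for the other 19. Mirlet7g and Mirlet7i, both lower in replicate 2, gave shifts of 0.05 and 0.03 in the opposite direction to Mir139. With all 20 left out of the totals, the median of the remaining 446 genes was 0.08.

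**Figure D5:**
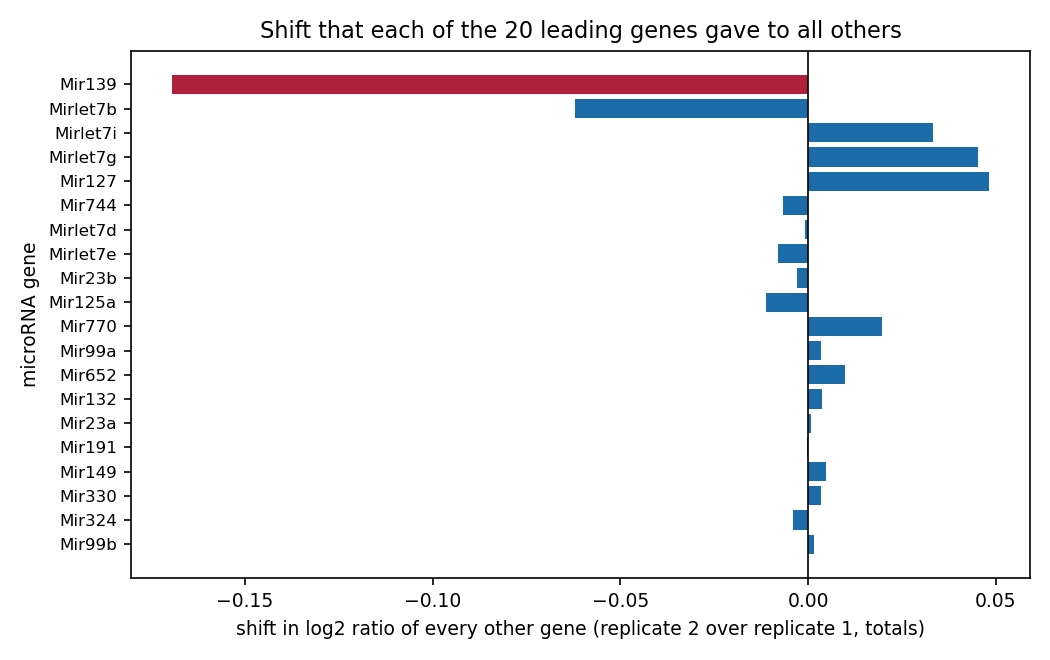
Bars give the log2 shift (replicate 2 over replicate 1) that each of the 20 most abundant genes adds to the ratio of every other gene through the total counts, in order of mean level. The bar of Mir139, in red, reaches -0.17, and the next longest, for Mirlet7b, reaches -0.06.

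Expressed in shares, Mir139 gained 10.1 percentage points from replicate 1 to replicate 2. The share gained by all 323 genes with a higher share came to 18.5 points, of which Mir139 supplied 54.6%. After it came Mirlet7b with 3.91 points, Mir125a with 0.764, Mirlet7e with 0.533 and Mir128-1 with 0.505. The largest losses were -3.13 points for Mir127, -2.91 for Mirlet7g, -2.11 for Mirlet7i, -1.34 for Mir770 and -0.679 for Mir652. Shares sum to a fixed total, so part of each loss is the counterpart of the gain of Mir139. Of these 5 genes, all kept a log2 ratio below 0 once Mir139 was left out of the totals, from -0.19 for Mirlet7i to -1.03 for Mir770.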

How the data were processed

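Small-RNA reads of 2 hippocampus libraries were counted by the submitters. The deposited files hold raw counts for mm10 and annotation M21, a build and annotation given by each library's accompanying notes. Neither aligner nor counter is given in the sources used here. Each file has 3 unlabelled count columns and 4 read classes, which were left out of library sizes. Of the stranded columns, the one with the larger gene total in both libraries was taken as sense. All 2202 identifiers matched GENCODE M21.

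Levels were CPM over all genes, that is counts per 1000000. Ratios added 0.5 counts and were scaled by TMM in edgeR 4.0.16, from genes whose mean reached 10 counts, with DESeq2 1.42.0 size factors and totals as alternatives. Intervals are exact Clopper-Pearson or conditional binomial intervals at 95%. A microRNA counted as intronic if a protein-coding transcript on its strand spanned it and no exon of such a transcript overlapped it, taking the shortest host. Hairpins were folded with RNAfold 2.7.2. No p-value was computed, since 1 group of 2 libraries gives no contrast. The ratio step was first tested on simulated data.

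Genes named were Mir139, the 7 next in mean level, the 5 closest in ratio among genes with a mean of at least 1000 CPM, the 5 largest share gains and losses each, the 8 leading intronic genes, chromosome neighbours, seed or stretch matches and members of listed groups. Mir23a and Mir99b were singled out after their values were seen. Members, lists and rules were chosen with earlier results of these data known.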

Additional observations from a re-analysis of the deposited data

How the results depend on the processing

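The log2 ratio of Mir139 kept its direction and stayed above 2-fold in all 7 alternatives, between 1.07 (all reads of the library) and 1.37 (TMM from genes whose mean reached 50 counts). Its mean level was 57404 on the CPM scale when all reads were the denominator, because unmapped and multi-mapped reads then enter it, and 208971 CPM over genes sharing fewer than 18 bases, whose total is smaller. It was between 141257 and 147106 with DESeq2 size factors, TMM or counts without strand. Leaving out a replicate gave 87249 to 188348 CPM for the level and 20.6% to 38.0% for the share among intronic genes. The median log2 ratio of the other genes, -0.18 under totals, was -0.013 with Mir139 left out of the totals, 0.016 under TMM, -0.0011 under DESeq2 size factors, -0.15 over genes with a count in both libraries and -0.20 at a minimum mean of 50 counts. TMM and DESeq2 size factors are set to centre the ratios, so their medians near 0 are largely built in. The number of genes at least 2-fold apart, 63 of 466, was 125 of 673 with no minimum count (18.6%) and 35 of 328 at a minimum of 50 (10.7%). TMM was estimated anew from those genes, and the cause was not tested. No paired analysis was possible because there is only 1 group. Depth does not limit the values of Mir139, whereas the number of libraries, 2, does.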

Other observations

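Counts were spread less evenly over genes in replicate 2, where Mir139 was higher. The effective number of genes, the exponential of the Shannon entropy of the shares, was 46.0 in replicate 1 and 35.5 in replicate 2. Without Mir139 it was 47.9 and 44.8. The sum of all share gains between the libraries was 18.5 percentage points with Mir139 and 14.9 points among the remaining genes alone.

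The Mir139 hairpin was short and folded stably for its length. Its 68 bases compare with a median of 89 over the 2202 hairpins, and its minimum free energy per base was -0.524 kcal/mol against a median of -0.369. In all, 214 hairpins (9.72%) had a lower energy per base, and 4 of the 20 most abundant genes did. The median of those 20 was -0.478 kcal/mol per base.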
